A study of Homo sapiens with 6 samples.

Results

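The classical protein tyrosine phosphatases were studied in RNA-seq libraries of H1299 cells, a human lung cancer cell line, with and without an shRNA against Ephexin1. The members were the 37 genes whose symbol is PTPR followed by a letter or PTPN followed by a number, out of 26255 genes listed. By name, 20 of them encode receptor-type and 17 encode non-receptor phosphatases. The shControl group held 3 libraries of H1299 cells that carried a control shRNA, and the shEphexin1 group held 3 libraries of H1299 cells with an shRNA against Ephexin1, a guanine nucleotide exchange factor encoded by NGEF. Both shRNAs were expressed from the U6 promoter of a pSilencer2.1 plasmid, which the labels give in its neo form and the methods of the study in its hygro form. The methods describe drug-selected stable clones, and the names of the 3 shEphexin1 libraries share a stem, so that these libraries may come from 1 clone. The p-values below measure only the spread between these libraries, which may be technical.

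Classical tyrosine phosphatases typically remove phosphate from tyrosine residues with a catalytic cysteine, and so act against tyrosine kinases. This need not hold for every member, and phosphatase activity was not measured here. Receptor-type members span the membrane and carry extracellular parts that resemble adhesion molecules and bind proteoglycans, contactins or the same phosphatase on a neighbouring cell. Non-receptor members lie in the cytoplasm, on internal membranes or in the nucleus, where SH2, FERM, PDZ or proline-rich parts bring them to their substrates. In epithelial cells the family is known for setting the phosphorylation of growth factor receptors, Src family kinases and cell junction proteins.

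Expression was measured as FPKM, the fragments of a gene scaled by its transcript length and the library size. This allows a rough comparison between genes and between libraries. The scaling does not remove differences in base composition, and the libraries differed in it, as given below. Of the 37 members, 25 had 0.1 FPKM or more in 3 or more libraries and were tested, 12 of them receptor-type and 13 non-receptor. The other 12 did not reach that level and were given no test. PTPRU was the 1 member that passed through the shEphexin1 libraries only, so that it could differ in that direction alone. PTPN22 reached 0.1 FPKM in shControl 1 and shControl 3 but not in shControl 2, so that it too needed shEphexin1 libraries to pass. Had its shEphexin1 values all lain below 0.1 FPKM, it would not have been tested. A gene was called different when the adjusted p of limma over all genes tested was at most 0.025 and the fitted difference was at least 2-fold on the scale of log2(FPKM + 0.1), which understates the change of weakly expressed genes.

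The RNA of the shRNA target was lower but not called. The study checked its stable knockdown clones for Ephexin1 protein by western blot, which the RNA values do not measure. NGEF stood at 13.3, 11.7 and 16.4 FPKM in shControl, against 9.81, 8.25 and 10.5 FPKM in shEphexin1 (log2 fold change -0.53, limma adjusted p = 0.103). Replicate 2 of both groups differed in base composition from replicates 1 and 3. The deviation of a library from its group mean was correlated with GC content over genes, which share each library and are no replicates. The Spearman rho was -0.688 in shControl 2 and -0.759 in shEphexin1 2, against 0.336 to 0.664 in the other 4 libraries. Deviations balance out within a group, so that these values do not show which replicate is unusual. Of the epithelial markers, KRT18 lay between 67.6 and 109 FPKM in shControl, against 36.3 to 54.7 FPKM in shEphexin1, and KRT8 between 5.13 and 8.44 FPKM, against 2.65 to 3.48 FPKM. EPCAM was low but higher in shEphexin1, at 0.0565, 0.0663 and 0 FPKM in shControl against 0.108, 0.220 and 0.192 FPKM in shEphexin1, without overlap. None of these 3 was called. The log2 fold change was -1.07 for KRT8 (limma adjusted p = 0.0304), past 2-fold but short of the p limit. It was -0.94 for KRT18 (limma adjusted p = 0.0439) and 0.97 for EPCAM (limma adjusted p = 0.175). KRT19 was at most at 0.185 FPKM. Of the lung markers, NKX2-1 was listed at 0 in all 6 libraries. SFTPB lay between 0.151 and 0.312 FPKM and NAPSA between 0.0871 and 0.324 FPKM over the 6, with overlapping groups, and neither was called. The part of the marker differences in the results was not tested. The numbers of reads were not part of the values, so that the depth of each library is unknown. A listed 0 need not mean absence, since H3F3A, a histone gene that every cell uses, had a listed 0 in every library.

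Ephexin1 knockdown cells contained more mRNA of 4 tyrosine phosphatase genes, 3 of which encode receptors. These are bulk libraries, so that a change in the number of cells that express a gene and a change in its RNA per cell cannot be told apart. PTPRS, PTPRU and PTPRG were the receptor-type members called higher in shEphexin1, and PTPN22 was the non-receptor member. The 4 genes made up 16% of the 25 members tested, where 0.893% of all 16020 genes tested were called higher. No member was called lower (0 of 25), where 0.999% of all genes were. At an unadjusted p of at most 0.05 without a fold limit, 8 members (32%) were higher and 4 (16%) were lower, beside 10.5% and 12.8% of all genes. The median log2 fold change was 0.26 over the 12 receptor-type members tested, 0.05 over the 13 non-receptor members and -0.01 over all genes tested. These counts describe members chosen with results of the same libraries known. Of the called members, PTPRU and PTPN22 passed the filter only with their shEphexin1 libraries, the group where they were high.

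**Figure D1:**
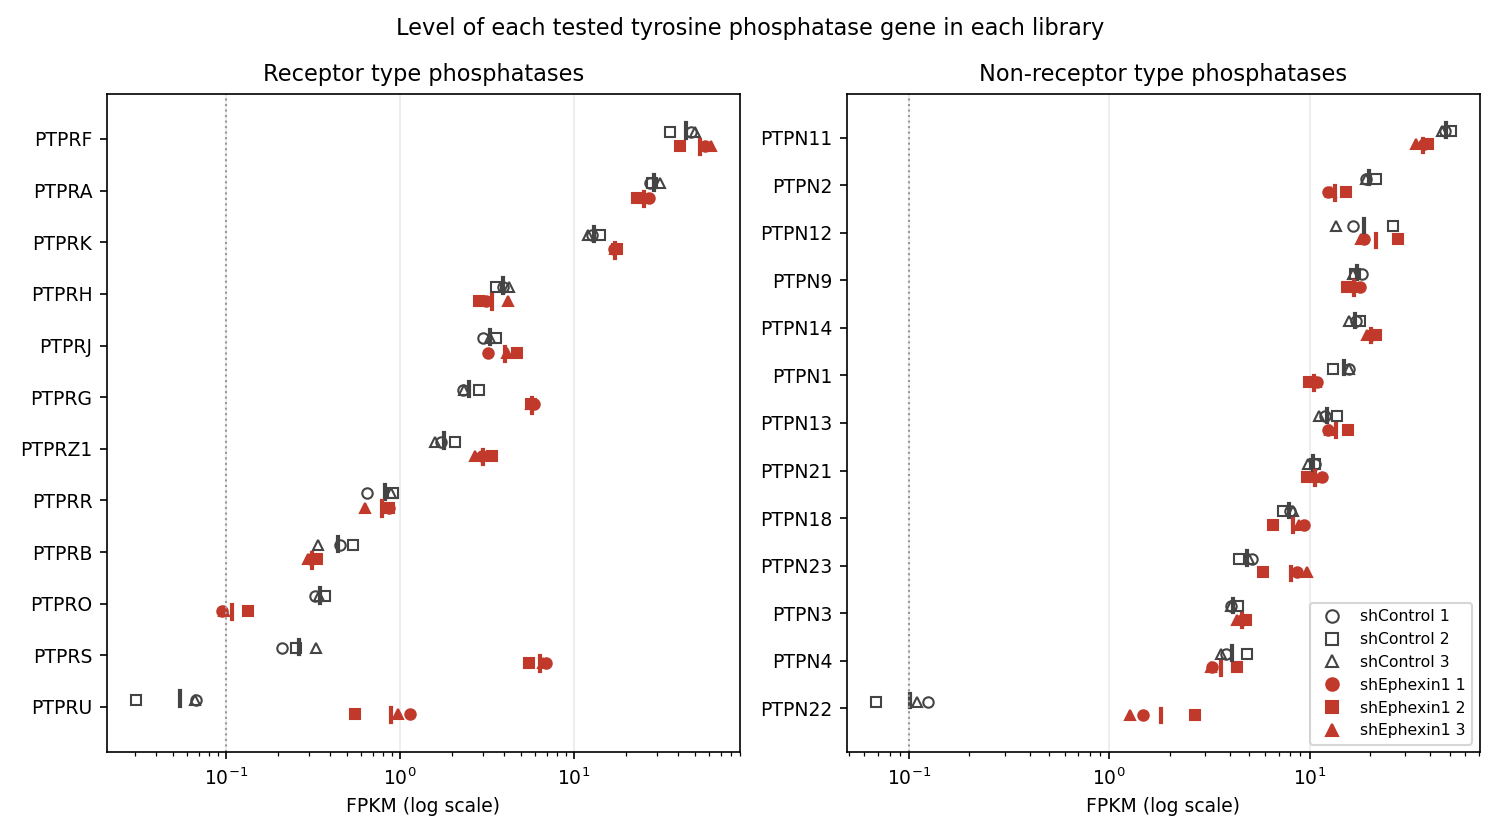
FPKM of the 25 tested tyrosine phosphatase genes in each library on a log axis, receptor-type genes on the left and non-receptor genes on the right, with open grey symbols for shControl, filled red symbols for shEphexin1, vertical ticks for group means and a dotted line at the 0.1 FPKM filter. PTPRS, PTPRU and PTPN22 moved from under 0.33 FPKM in every shControl library to above 0.55 FPKM in every shEphexin1 library, whereas the other members except PTPRO and PTPRG lay within 2-fold of their control level.

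PTPRS encodes a receptor of the LAR type that binds heparan and chondroitin sulfate proteoglycans and is best known for its part in axon growth and synapse formation. It lies on the minus strand of chromosome 19 (GRCh37 chr19:5158506-5340823). PTPRS stood at 0.210, 0.253 and 0.329 FPKM in shControl, against 6.94, 5.51 and 6.70 FPKM in shEphexin1. Every shEphexin1 library lay far above every shControl library. The mean rose from 0.264 ± 0.0604 FPKM to 6.38 ± 0.764 FPKM (SD, n = 3 each), a ratio of 24.2, and the fitted log2 fold change came to 4.16 (SE, standard error, 0.201, limma adjusted p = 0.000157). PTPRS was called higher under every one of the alternative settings tried.

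PTPRU belongs to a family of receptors of which several bind their own kind on neighbouring cells and associate with catenins. It lies on the plus strand of chromosome 1 (GRCh37 chr1:29563028-29653325). PTPRU stood at 0.0674, 0.0304 and 0.0667 FPKM in shControl, against 1.15, 0.556 and 0.975 FPKM in shEphexin1. The groups did not overlap, and the lowest value of each group was that of replicate 2. The mean rose from 0.0548 ± 0.0212 FPKM to 0.894 ± 0.305 FPKM (SD, n = 3 each), a ratio of 16.3, with a fitted log2 difference of 2.64 (SE 0.328, limma adjusted p = 0.00689). This call was lost when shControl 1, shControl 3, shEphexin1 1 or shEphexin1 3 was left out. The log2 fold change was then 2.45 to 2.70 and the limma adjusted p was 0.0262 to 0.0456. With a pseudocount of 1 FPKM the call was lost as well. The study lists PTPRU among the genes it measured by RT-qPCR, and those values were not used here.

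PTPRG encodes a receptor with an extracellular part that resembles carbonic anhydrase and binds contactins. It lies on the plus strand of chromosome 3 (GRCh37 chr3:61547243-62283284). PTPRG stood at 2.31, 2.86 and 2.35 FPKM in shControl, against 5.94, 5.71 and 5.72 FPKM in shEphexin1. The 3 shEphexin1 values lay close together and above all shControl values. The mean rose from 2.51 ± 0.308 FPKM to 5.79 ± 0.130 FPKM (SD, n = 3 each), a ratio of 2.31, with a fitted log2 difference of 1.18 (SE 0.144, limma adjusted p = 0.00635). Leaving out any 1 of the same 4 libraries ended this call, with a limma adjusted p of 0.0328 to 0.0508, and with a pseudocount of 1 FPKM the log2 fold change was 0.96 and fell short of the fold limit. PTPRG-AS1, a noncoding RNA on the opposite strand of the same locus, had a log2 fold change of -0.05.

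PTPN22 encodes a cytoplasmic phosphatase of the PEST type that is known from lymphocytes, where it dampens antigen receptor signalling. It lies on the minus strand of chromosome 1 (GRCh37 chr1:114356433-114414375). PTPN22 stood at 0.125, 0.0682 and 0.110 FPKM in shControl, against 1.47, 2.68 and 1.27 FPKM in shEphexin1. The groups did not overlap, and replicate 2 was lowest in shControl but highest in shEphexin1. The mean rose from 0.101 ± 0.0294 FPKM to 1.81 ± 0.760 FPKM (SD, n = 3 each), a ratio of 17.9, with a fitted log2 difference of 3.19 (SE 0.322, limma adjusted p = 0.00328). PTPN22 was called under every alternative setting tried. The noncoding gene AP4B1-AS1 overlaps it on the opposite strand and was at 0.821, 0.490 and 0.174 FPKM in shControl against 0.618, 0.671 and 0.596 FPKM in shEphexin1, with overlapping groups (log2 fold change 0.46, limma adjusted p = 0.584). Libraries were made with a stranded kit, but whether strand was used in counting is not given in the sources used here.

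For each of these 4 genes the 3 against 3 libraries gave a p of 0.1 in a two-sided exact permutation test, and no smaller value is possible with 6 libraries. Replicates 1 and 3 alone gave log2 fold changes of 4.25 for PTPRS, 2.80 for PTPRU, 1.29 for PTPRG and 2.76 for PTPN22, all called. That fit kept the genes that had passed the filter with all 6 libraries. PTPRU passed through its shEphexin1 libraries only, so that without replicate 2 it would not have been tested. The difference within replicate 2 was 3.99 for PTPRS, 2.33 for PTPRU, 0.97 for PTPRG and 4.05 for PTPN22 on the same scale. A pseudocount of 1 FPKM, which weighs low values less, gave 2.54 for PTPRS, 0.83 for PTPRU and 1.32 for PTPN22. All 4 genes were higher in shEphexin1 with and without replicate 2. The low control values rest on few fragments. From the steps between low FPKM values and the annotated transcript lengths, PTPRU was estimated at 1.72 to 4.07 fragments in a shControl library and 41.1 to 67.9 in a shEphexin1 library, and PTPN22 at 2.50 to 4.88 and 39.3 to 128. These fragment numbers are approximate and no counting interval was taken from them, so the ratios for PTPRU and PTPN22 carry a counting error that is not shown.

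The haematopoietic genes in the cultures were checked because PTPN22 is best known from lymphocytes. Of 8 haematopoietic markers, 2 were expressed well enough to be tested and neither was called. CD3E, SPI1 and LCP1 were listed at 0 in all 6 libraries. The summed level of the 8 markers lay between 39.0 and 56.2 FPKM in shControl, against 54.7 to 72.4 FPKM in shEphexin1, almost all of it from CD68, a lysosomal protein gene that is also transcribed in other cells. PTPRC, which encodes the pan-leukocyte receptor CD45, was listed at 0 in all 6 libraries as well. The 5 neural markers, relevant to PTPRS, summed to between 2.06 and 2.54 FPKM in shControl, against 3.05 to 3.85 FPKM in shEphexin1, with 3 tested and 0 called, and their part in the result was not tested.

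The sequence upstream of the 4 called genes is shown because these genes rose together. Each is the 250 bases before the annotated start in RefSeq on GRCh38.p14, written 5′ to 3′ on the strand of the gene. A window was found for 32 of the 37 members. Capitals mark the GC box GGGCGG or its reverse complement CCGCCC and the cyclic AMP response element TGACGTCA, which were searched on both strands and do not overlap here. The positions are chr19:5340813-5341062 on the minus strand for PTPRS, chr1:29236272-29236521 on the plus strand for PTPRU, chr3:61561321-61561570 on the plus strand for PTPRG and chr1:113871713-113871962 on the minus strand for PTPN22.
PTPRS: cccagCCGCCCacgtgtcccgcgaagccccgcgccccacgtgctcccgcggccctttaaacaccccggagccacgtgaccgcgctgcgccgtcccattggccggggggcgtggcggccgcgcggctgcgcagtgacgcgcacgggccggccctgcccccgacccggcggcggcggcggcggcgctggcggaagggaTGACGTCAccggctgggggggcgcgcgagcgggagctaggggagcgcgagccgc
PTPRU: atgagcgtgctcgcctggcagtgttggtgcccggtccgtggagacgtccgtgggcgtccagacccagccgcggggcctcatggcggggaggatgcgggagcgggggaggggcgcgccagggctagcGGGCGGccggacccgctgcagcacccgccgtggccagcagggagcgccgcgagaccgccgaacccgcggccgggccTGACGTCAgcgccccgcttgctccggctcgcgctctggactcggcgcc
PTPRG: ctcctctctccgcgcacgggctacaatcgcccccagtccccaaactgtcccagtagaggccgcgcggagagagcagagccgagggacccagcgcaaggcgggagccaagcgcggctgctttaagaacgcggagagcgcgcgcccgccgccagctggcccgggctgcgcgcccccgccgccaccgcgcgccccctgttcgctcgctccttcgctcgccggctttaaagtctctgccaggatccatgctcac
PTPN22: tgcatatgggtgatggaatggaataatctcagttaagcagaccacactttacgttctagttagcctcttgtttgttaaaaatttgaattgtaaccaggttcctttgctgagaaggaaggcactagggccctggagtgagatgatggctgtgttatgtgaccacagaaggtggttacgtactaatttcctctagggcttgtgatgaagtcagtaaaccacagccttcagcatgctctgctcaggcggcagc

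The PTPRS, PTPRU and PTPRG windows are rich in CG dinucleotides, with 44, 36 and 32 of them. The PTPN22 window holds 3. Over all 35114 promoter windows of this length the median was 11 and the quartiles were 3 and 23. A GC box is present in the windows of PTPRS and PTPRU and not in those of PTPRG and PTPN22, while 42.6% of all windows hold one. TGACGTCA was added to the search after the sequences had been seen, so that its share of all windows is no test of enrichment. It occurs in the windows of PTPRS and PTPRU, in those of no other member with a window, and in 1.65% of all windows. The TATA box, searched as TATAAA, is in 10.7% of all windows and in none of the 4. The AP-1 site, searched as TGANTCA, is in 6.57% of all windows and in none of these. The ETS core, searched as CCGGAA, is in 14.5% and again in none of these. A match of letters is a description of the window and does not show that a factor binds there.

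**Figure D2:**
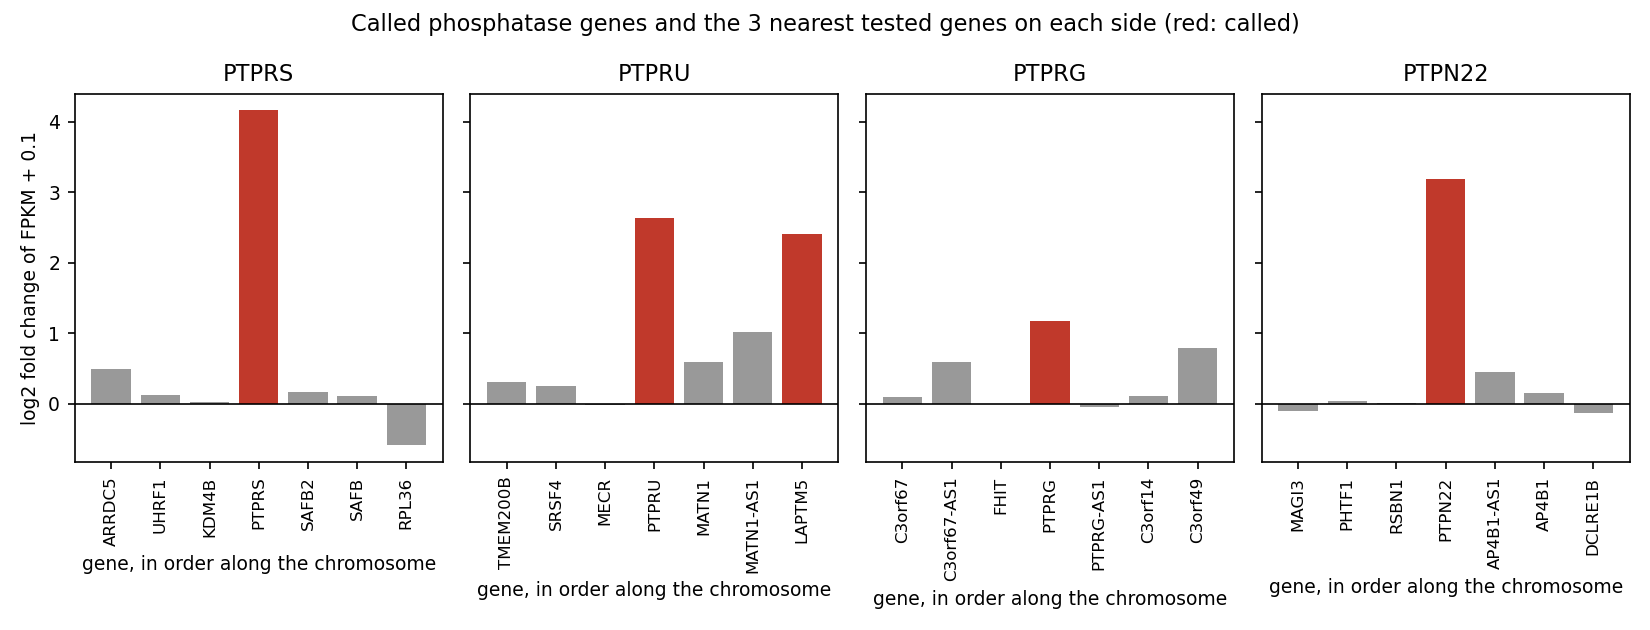
Bars give the log2 fold change of FPKM + 0.1 in shEphexin1 against shControl for each called phosphatase gene and its 3 nearest tested genes on each side, in order along the chromosome, with called genes in red. Of the 24 neighbours only LAPTM5 was called, and the genes next to PTPRS, PTPRG and PTPN22 stayed within 0.80 of 0.

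The genes around the called phosphatases were compared in the same fit. Among the 3 nearest tested genes on each side of the 4 loci, 24 genes in all, 1 was called. This was LAPTM5, a lysosomal membrane protein gene known from haematopoietic cells, which lies 1552 kb from PTPRU. LAPTM5 stood at 0, 0.0485 and 0.0540 FPKM in shControl, against 0.694, 0.757 and 0.406 FPKM in shEphexin1 (log2 fold change 2.41, limma adjusted p = 0.0111). KDM4B, 4.90 kb from PTPRS, had a log2 fold change of 0.03, and MECR, 5.57 kb from PTPRU, one of -0.02. RSBN1, 1.33 kb from PTPN22, had a log2 fold change of 0.01, and C3orf14, 21.4 kb from PTPRG, one of 0.11. FHIT, 310.1 kb from PTPRG on its other side, had a log2 fold change of -0.00014. MATN1-AS1, 1538 kb from PTPRU, had a log2 fold change of 1.03 (limma adjusted p = 0.127) and was not called.

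Among the receptors related to PTPRS, the LAR type, the abundant member was not called. PTPRF, which encodes LAR itself and was the most abundant receptor-type member, stood at 47.2, 36.0 and 49.9 FPKM in shControl, against 56.6, 41.0 and 61.7 FPKM in shEphexin1. The groups overlapped, with replicate 2 the lowest in both (log2 fold change 0.25, SE 0.191, limma adjusted p = 0.488). Each shEphexin1 value lay above the shControl value of the same number. With replicate number as a block in the fit, the limma adjusted p was 0.00777 at the same log2 fold change. With correction for GC content and length, the log2 fold change was 0.068 (limma adjusted p = 0.286). No alternative setting called PTPRF. PTPRD, the remaining LAR type receptor, stood at 0.0769, 0.105 and 0.0120 FPKM in shControl, against 0.00811, 0 and 0.0119 FPKM in shEphexin1 and was not tested.

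Of the receptors related to PTPRU, PTPRK is known to act on cadherin junctions and was the abundant one. PTPRK stood at 12.8, 14.2 and 12.1 FPKM in shControl, against 17.1, 17.8 and 17.4 FPKM in shEphexin1. Every shEphexin1 library was above every shControl library, yet the log2 fold change of 0.42 (SE 0.111) had a limma adjusted p of 0.0669 and stayed under 2-fold. PTPRM went the other way at a very low level, at 0.0973, 0.142 and 0.0851 FPKM in shControl and listed at 0 in all shEphexin1 libraries, and was not tested. PTPRT was listed at 0 throughout.

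PTPRZ1, the relative of PTPRG, encodes the receptor for the growth factor pleiotrophin. It stood at 1.73, 2.09 and 1.60 FPKM in shControl, against 2.97, 3.40 and 2.73 FPKM in shEphexin1. The groups did not overlap, and the log2 fold change came to 0.72 (SE 0.174, limma adjusted p = 0.0518), which was not called. PTPRZ1 lies on 7q, where the median log2 fold change of 408 genes was 0.30, and relative to that median its log2 fold change was 0.42.

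PTPRO, a receptor known from kidney podocytes and neurons, was the only tested member with a fitted decrease past 2-fold. It stood at 0.327, 0.372 and 0.342 FPKM in shControl, against 0.0953, 0.134 and 0.0979 FPKM in shEphexin1. All shEphexin1 values were below all shControl values. The log2 fold change came to -1.10 (SE 0.267, limma adjusted p = 0.0525), so PTPRO was not called. It was called lower when the spread was moderated without an intensity trend and when each library was corrected for GC content and transcript length. PTPRO lies on 12p, where the median over 170 genes was -0.43, and relative to that median its log2 fold change was -0.67. RERG, which overlaps PTPRO on the opposite strand, had a log2 fold change of -0.50 (limma adjusted p = 0.0641).

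PTPRA, which activates Src family kinases by removing an inhibitory phosphate, was the second most abundant receptor-type member. It stood at 27.6, 28.2 and 31.3 FPKM in shControl, against 27.2, 23.3 and 25.5 FPKM in shEphexin1. The groups did not overlap, though by a narrow margin, and the log2 fold change came to -0.20 (SE 0.112, limma adjusted p = 0.352). PTPRA lies on 20p, with a median of -0.29 over its genes, and its log2 fold change relative to that median was 0.09, the opposite sign. PTPRH stood at 3.93, 3.59 and 4.23 FPKM in shControl, against 3.12, 2.87 and 4.17 FPKM in shEphexin1, with overlapping groups. PTPRJ, a receptor that opposes growth factor signalling, stood at 3.03, 3.59 and 3.31 FPKM in shControl, against 3.23, 4.71 and 4.12 FPKM in shEphexin1 and overlapped too. PTPRB, known from endothelium, was at most at 0.539 FPKM, with a log2 fold change of -0.38 (limma adjusted p = 0.428), and PTPRR, which acts on MAP kinases, had a log2 fold change of -0.05.

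**Figure D3:**
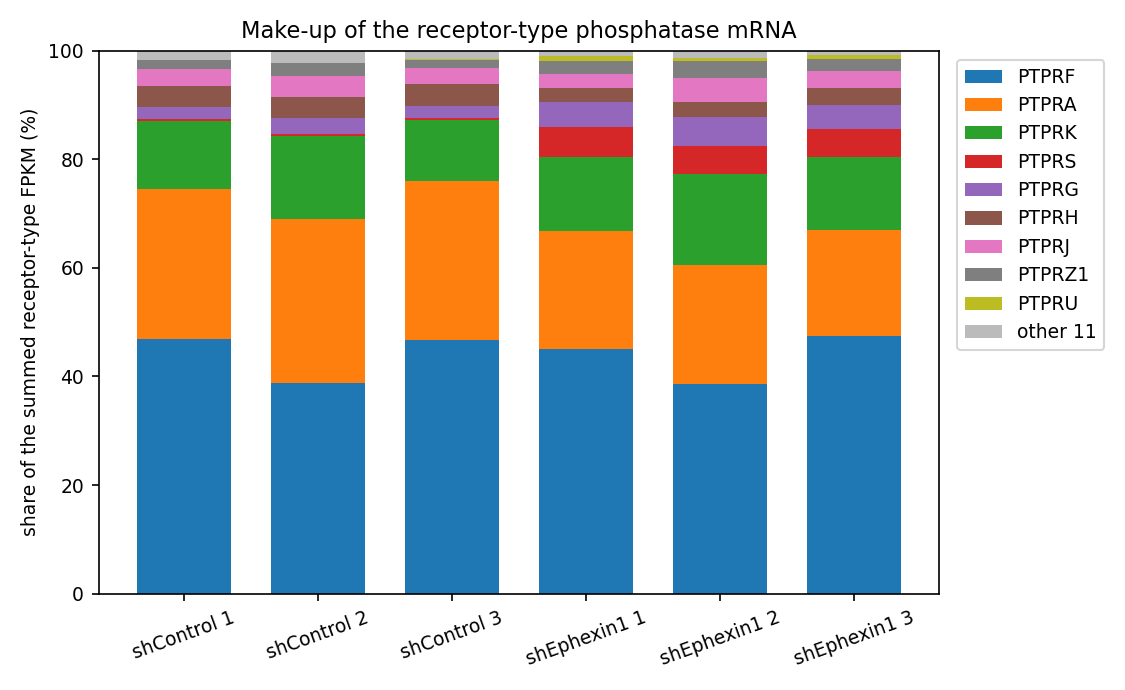
Stacked bars give the share (%) of each receptor-type gene in the summed FPKM of the 20 receptor-type genes, 1 bar per library. PTPRF held the largest share in every library, while PTPRS grew from 0.263% on average in shControl to 5.29% in shEphexin1.

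The summed level of the 20 receptor-type genes averaged 100 ± 7.04 FPKM (SD, n = 3) in shControl against 121 ± 12.7 FPKM (SD, n = 3) in shEphexin1, with values of 100, 92.9 and 107 FPKM against 126, 106 and 130 FPKM. The groups overlapped at the edge, since shEphexin1 2 lay below shControl 3. On average PTPRF made up 44.1% of the sum in shControl and 43.7% in shEphexin1, and PTPRA 29.0% and 21.1%. PTPRS went from 0.263% to 5.29%, PTPRG from 2.52% to 4.83% and PTPRU from 0.0540% to 0.730%. PTPRS thus moved from among the least expressed of the tested receptors to the level of PTPRG. The 17 non-receptor genes summed to 179 ± 11.6 FPKM (SD, n = 3) in shControl against 170 ± 7.70 FPKM (SD, n = 3) in shEphexin1, with overlapping groups, and PTPN22 went from 0.0569% to 1.05% of that sum.

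Among the non-receptor phosphatases, 3 widely expressed members were lower by less than 2-fold. PTPN11 encodes SHP2, an SH2 domain phosphatase that carries signals from growth factor receptors towards RAS and ERK, and was the most abundant of the 17. It stood at 47.5, 50.8 and 45.9 FPKM in shControl, against 37.1, 39.2 and 34.2 FPKM in shEphexin1. The groups did not overlap (log2 fold change -0.38, SE 0.103, limma adjusted p = 0.0697). RPL6, which overlaps PTPN11 on the opposite strand, had a log2 fold change of -0.51.

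PTPN1 and PTPN2 form a closely related pair that acts on the insulin receptor and on JAK and STAT proteins. PTPN1 stood at 15.8, 13.1 and 15.8 FPKM in shControl, against 10.9, 9.96 and 10.7 FPKM in shEphexin1 (log2 fold change -0.49, SE 0.124, limma adjusted p = 0.0597). PTPN2 stood at 19.2, 21.4 and 19.1 FPKM in shControl, against 12.3, 15.2 and 12.8 FPKM in shEphexin1 (log2 fold change -0.57, SE 0.125, limma adjusted p = 0.0403). Neither pair of groups overlapped, and neither gene was called. The chromosome arms of these genes were shifted in the same direction. The median log2 fold change was -0.46 over 49 genes of 18p, which holds PTPN2, -0.22 over 236 genes of 20q, which holds PTPN1, and -0.17 over 510 genes of 12q, which holds PTPN11. Relative to those medians the log2 fold changes were -0.11 for PTPN2, -0.27 for PTPN1 and -0.22 for PTPN11, with limma adjusted p values of 0.680, 0.275 and 0.295. What lies behind the shifts of whole arms was not tested.

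**Figure D4:**
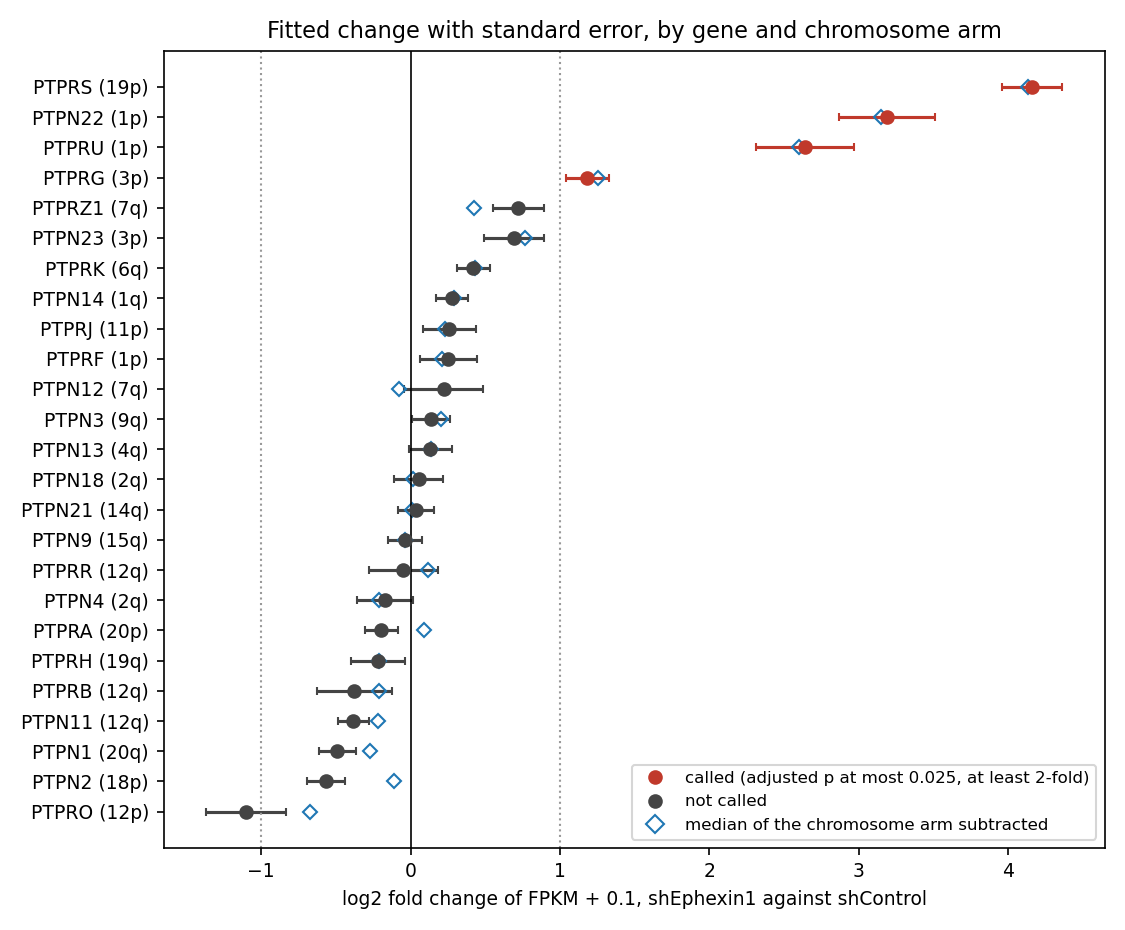
Points give the fitted log2 fold change of FPKM + 0.1 in shEphexin1 against shControl for each tested member with its standard error, red where called, and open diamonds give the change after the median of the chromosome arm was subtracted. PTPRS, PTPN22, PTPRU and PTPRG lay beyond 2-fold (dotted lines) with either value, whereas PTPN2, PTPN1, PTPRO and PTPRZ1 moved towards 0.

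PTPN14 and PTPN23 were the remaining non-receptor members with groups that did not overlap, both higher. PTPN14, a FERM domain phosphatase that binds the transcriptional coactivator YAP, stood at 17.0, 17.8 and 15.7 FPKM in shControl, against 20.3, 21.4 and 19.4 FPKM in shEphexin1 (log2 fold change 0.28, limma adjusted p = 0.179). PTPN23, which takes part in sorting receptors on endosomes, stood at 5.14, 4.44 and 4.97 FPKM in shControl, against 8.62, 5.86 and 9.70 FPKM in shEphexin1 (log2 fold change 0.69, limma adjusted p = 0.0874). The increase of PTPN23 was smaller in replicate 2, where the log2 difference was 0.39, than in replicates 1 and 3, where it was 0.84, and the difference between these was not tested. Among the 25 tested members, groups did not overlap in 8 (32%) that were higher and 6 (24%) that were lower, beside 12.8% and 15.4% of all genes tested. Of the members not tested, PTPRD and PTPRM were lower and PTPRQ was higher without overlap, all at very low levels.

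The other abundant non-receptor genes varied within their spread. PTPN12, a relative of PTPN22 that acts on focal adhesion proteins, stood at 16.5, 26.0 and 13.6 FPKM in shControl, against 18.7, 27.5 and 18.0 FPKM in shEphexin1. Its highest value in each group was that of replicate 2, so that the replicates differed more than the groups (log2 fold change 0.22, limma adjusted p = 0.680). PTPN9, a phosphatase of secretory vesicles, stood at 18.2, 16.9 and 16.4 FPKM in shControl, against 17.9, 15.3 and 17.0 FPKM in shEphexin1, with overlapping groups. The log2 fold changes of PTPN3, PTPN4, PTPN13, PTPN18 and PTPN21 lay between -0.17 and 0.13, and none had an unadjusted p of at most 0.05. MAPK10, which overlaps PTPN13 on the opposite strand, was itself called higher (log2 fold change 1.58, limma adjusted p = 0.0198).

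The 12 members that were not tested were low in both groups. PTPN6, the SH2 domain phosphatase of blood cells, was at most at 0.0762 FPKM, and PTPN5 of the brain at most at 0.0351 FPKM. PTPN7, a leukocyte phosphatase that acts on MAP kinases, stood at 0.0518, 0.0766 and 0.0662 FPKM in shControl, against 0.0721, 0.221 and 0.111 FPKM in shEphexin1, so that the groups overlapped. PTPRQ, a receptor of the inner ear, was listed at 0 in every shControl library, against 0.0101, 0.0403 and 0.0238 FPKM in shEphexin1. PTPRE, PTPRN and PTPN20 stayed at or below 0.0590 FPKM, and PTPRC, PTPRN2 and PTPRT were listed at 0 in all 6 libraries.

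The ligands and surface partners of the receptors were described in the same fit. Of 25 listed, 12 were tested, 0 were called higher and 1 was called lower, with a median log2 fold change of 0.05. The called gene was PTN, which encodes pleiotrophin, a ligand of PTPRZ1 and PTPRS. PTN was at 6.37, 6.33 and 6.41 FPKM in shControl and was listed at 0 in all 3 shEphexin1 libraries (limma adjusted p = 1.81e-05). MDK, the related growth factor midkine, stood at 104, 83.8 and 117 FPKM in shControl, against 63.9, 50.4 and 71.4 FPKM in shEphexin1, without overlap (log2 fold change -0.71, limma adjusted p = 0.0521).

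Of 14 adaptors and scaffolds that bind these phosphatases, 13 were tested and 0 were called in either direction, with a median of 0.01. The lowest p belonged to GRB2, an adaptor of growth factor receptors, at 33.7, 28.6 and 36.4 FPKM in shControl, against 23.5, 19.6 and 25.1 FPKM in shEphexin1 (log2 fold change -0.53, limma adjusted p = 0.0683). Next came PPFIBP2, a liprin, one of the scaffold proteins of the LAR type receptors, at 0.181, 0.269 and 0.200 FPKM against 0.578, 0.344 and 0.629 FPKM (log2 fold change 0.94, limma adjusted p = 0.107). Neither pair of groups overlapped.

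Among 28 kinases, receptors and junction proteins known as substrates, 25 were tested, 1 was called higher and 1 lower, with a median of 0.10. INSR, the insulin receptor and a substrate of PTPN1, stood at 0.172, 0.0798 and 0.154 FPKM in shControl, against 1.51, 1.32 and 1.48 FPKM in shEphexin1 (log2 fold change 2.73, limma adjusted p = 0.00231). LYN, a Src family kinase, stood at 1.27, 1.50 and 0.920 FPKM in shControl, against 0.0867, 0.169 and 0.0534 FPKM in shEphexin1 (log2 fold change -2.73, limma adjusted p = 0.00513). Both were clear of overlap, in opposite directions.

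The other phosphatases served as a comparison, with 62 dual-specificity, myotubularin and related genes, among them 4 EYA genes whose products use an aspartate in place of the cysteine. Of these, 54 were tested, 0 were called higher and 1 was called lower, with a median of 0.00184. The called gene was EYA1, at 1.23, 1.83 and 1.40 FPKM in shControl, against 0.571, 0.561 and 0.516 FPKM in shEphexin1 (log2 fold change -1.27, limma adjusted p = 0.0188). MTMR4, a myotubularin of endosomes, was at 19.3, 17.1 and 19.3 FPKM against 9.76, 9.35 and 10.5 FPKM, with a log2 fold change of -0.91 (limma adjusted p = 0.00720), just short of 2-fold. Whether the classical phosphatases differ from these lists was not tested.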

How the data were processed

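Total RNA was extracted with TRIzol and sequenced as 3 shControl and 3 shEphexin1 libraries prepared with a stranded kit. The authors aligned the reads to GRCh37/hg19 in TopHat2 2.0.13 and obtained FPKM for every gene from Cuffdiff of Cufflinks 2.2.1 with geometric normalization. The deposited values are these FPKM, without read counts, so that the depth behind each value is unknown. The gene annotation is not given in the sources used here.

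The 16020 of 26255 genes that had 0.1 FPKM or more in 3 or more libraries were tested on log2(FPKM + 0.1) with limma 3.58.1 (eBayes with trend, R 4.3.3). The p-values were adjusted over all of them by the Benjamini-Hochberg method, and genes were called when the adjusted p was 0.025 or less and the difference 2-fold or more. The thresholds are those of the study, which applied them to Cuffdiff tests, so that its calls and these need not match. The fit was tested on simulated data, in which no gene as weakly expressed as PTPRU or PTPN22 was changed. The changes put in were larger than that of PTPRG, so that the simulation does not bear on these 3 calls. Positions, strands and overlaps are from GENCODE 44 on GRCh37, and older names from RefSeq. Chromosome arm medians are over genes with a mean of at least 1 FPKM. Annotation and plots used Python 3.11.15, pandas 2.3.3 and matplotlib 3.10.9.

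The members and lists were chosen with earlier results of these data known. Values per library are given for members called, with an unadjusted p of at most 0.05, or among the 5 most abundant in shControl of each class. From each partner list they are given for called genes or, where fewer than 2 were called, for the 2 with the lowest p. Neighbours and overlapping genes were added as context. A further marker gene is not reported here. Alternatives were 2 other pseudocounts, 2 other filters, median centring, quantile normalization, eBayes without trend, a replicate block, each library left out, replicates 1 and 3 alone, a batch term for replicate 2, correction for GC content and length without and with the block, arm medians subtracted and other thresholds.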

Additional observations from a re-analysis of the deposited data

How the results depend on the processing

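The count of 4 tyrosine phosphatase genes called higher fell to 2, PTPRS and PTPN22, with a pseudocount of 1 FPKM. With each library left out in turn it ranged from 2 to 4, and it was 2 without shControl 1, shControl 3, shEphexin1 1 or shEphexin1 3, where PTPRU and PTPRG were not called. In these fits only 23 to 55 genes of all tested were called higher, against 143. With a filter of 1 FPKM it was 3, because PTPRU was not tested. The fits with libraries left out kept the genes that had passed the 0.1 FPKM filter with all 6 libraries. PTPRU passed it through its shEphexin1 libraries only, so that without any of them it would not have been tested. The count called lower rose from 0 to 1 (PTPRO) with eBayes without trend and with the GC and length correction, and was 0 in every fit with a library left out. Same-numbered libraries of the groups deviated together with r = 0.0914, 0.430 and 0.328 for replicates 1, 2 and 3, so that the numbers were not taken to pair them, although every library correlated best with its own number. With the replicate block 4 members were still called higher and 0 lower, while over all genes 309 were called higher and 247 lower, against 143 and 160. Signs turned for 6 members, none of them called. With arm medians subtracted, PTPN12 went from 0.22 to -0.0767, PTPRA from -0.20 to 0.0899 and PTPRR from -0.05 to 0.118. With the GC and length correction, without and with the block, PTPN18 was at -0.0163 and PTPRR at 0.0197. PTPN9 was at 0.0015 with quantile normalization and at 0.0137 with replicates 1 and 3 alone. With single libraries left out, PTPN18 ranged from -0.0437 to 0.209, PTPN21 from -0.0248 to 0.101, PTPN9 from -0.0872 to 0.0244 and PTPRR from -0.188 to 0.0867. The causes were not tested. Precision is limited by 3 libraries a group, by an unknown depth and, for PTPRU and PTPN22, by the few fragments in shControl.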
